A study of Mus musculus with 12 samples.

Results

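The small intestine of suckling mice that lack the corepressor NCoR1 in the intestine was compared with that of wild type mice of the same age. The KO neonates (3 libraries) and the WT neonates (3 libraries) were 12 days old and are 6 of the 12 libraries of the series, taken by their labels. The remaining libraries come from KO adults and WT adults of 10 weeks, with 3 libraries each. All groups are C57BL/6 per the labels, and each library held the pooled RNA of 2 mice, so that p-values measure the spread between pools and not between single mice. The genotypes are labelled only as wild type and as an intestinal NCoR1 knockout. Strain names in the design text, F/FUN and DIECUN, come with no account of their alleles, and no source used here gives the Cre driver. Entire small intestines were pulverized before RNA extraction, so epithelium, connective tissue, muscle, vessels, nerves and immune cells all contributed. In such bulk tissue, fewer cells of a type and less RNA per cell cannot be told apart.

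NCoR1 is a scaffold protein that nuclear receptors recruit, together with TBL1 proteins, GPS2 and histone deacetylase 3, to keep the genes they bind at a low level until a ligand arrives. Receptors that use it include those for thyroid hormone, retinoic acid, oxysterols (LXR), fatty acids (PPAR) and foreign compounds (PXR and CAR). At this age the mouse pup lives on milk. The suckling enterocyte splits lactose, absorbs and repackages milk fat, and takes up milk proteins for digestion in large lysosomes. It switches at weaning to enzymes for starch and sucrose and to a larger capacity for metabolizing foreign compounds.

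Recovered reads in genes ranged from 5930748 to 8314138 per library in KO neonates and from 8443540 to 9340917 in WT neonates. Levels below are read counts per 1e+06 reads in genes (CPM) after scaling with TMM factors, which correct for a few very abundant genes taking a larger share of one library. Means are given ± SD over 3 libraries per group, and log2 differences are KO minus WT of log2(CPM + 1), which understates the change of low genes. Calls are limma adjusted p-values under 0.05 over all 14215 tested genes. The first principal component held 51.3% of the variance and separated the KO from the WT libraries. Log2 levels correlated between 0.9912 and 0.9918 within KO, between 0.9919 and 0.9922 within WT, and between 0.9812 and 0.9853 across genotypes.

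Ncor1 itself (mm9 chr11:62129928-62252017) had 250.3, 221 and 247 CPM in the KO libraries, against 429, 435 and 446 CPM in the WT libraries. The KO libraries lay below every WT library (log2 difference -0.87, SE 0.057, adjusted p = 1.14e-09), and the remaining level was 239 ± 16 CPM. Reads over exons outside a deleted part and reads from cells in which the gene was not deleted would both count here, and their part was not measured. Of the 7 genes in the corepressor complex list, 2 rose and Ncor1 alone fell. Tbl1xr1, which encodes a subunit that binds NCoR1 directly, rose to 169, 175 and 185 CPM in KO and 108, 88.9 and 101 CPM in WT libraries (log2 difference 0.83, SE 0.068, adjusted p = 2.51e-08). Its relative Tbl1x rose by less, to 60.4 ± 6.83 CPM in KO and 41.2 ± 3.35 CPM in WT libraries (log2 difference 0.54, SE 0.085, adjusted p = 0.00013). The groups did not overlap for either gene, as for 32.7% of all tested genes. The others, among them the deacetylase gene Hdac3 (61.6 ± 3.62 against 55.3 ± 1.59 CPM), were not called.

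Across all genes, 1278 of 14215 tested genes were higher in KO neonates (8.99%) and 1093 were lower (7.69%), 16.7% in all. With the deposited scaling in place of TMM the split was 741 higher and 2268 lower, and the median log2 difference of all tested genes was -0.113 in place of -0.018. Directions of gene groups below were read on the TMM scale. Their counts of called genes are to be set beside the shares of 8.99% higher and 7.69% lower, and some lists lie near these shares. Most differences were small: the median was 0.36 among higher and -0.40 among lower genes. At 2-fold or more, 118 genes were higher and 109 lower, at 4-fold 25 and 23, and at 8-fold 9 and 3. The KO and WT libraries did not overlap for 4644 tested genes (32.7%), among them 2338 of the 2371 called genes. Calls held in each of 6 fits that left out 1 library for 794 higher genes (5.59%) and 526 lower genes (3.7%).

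**Figure D1:**
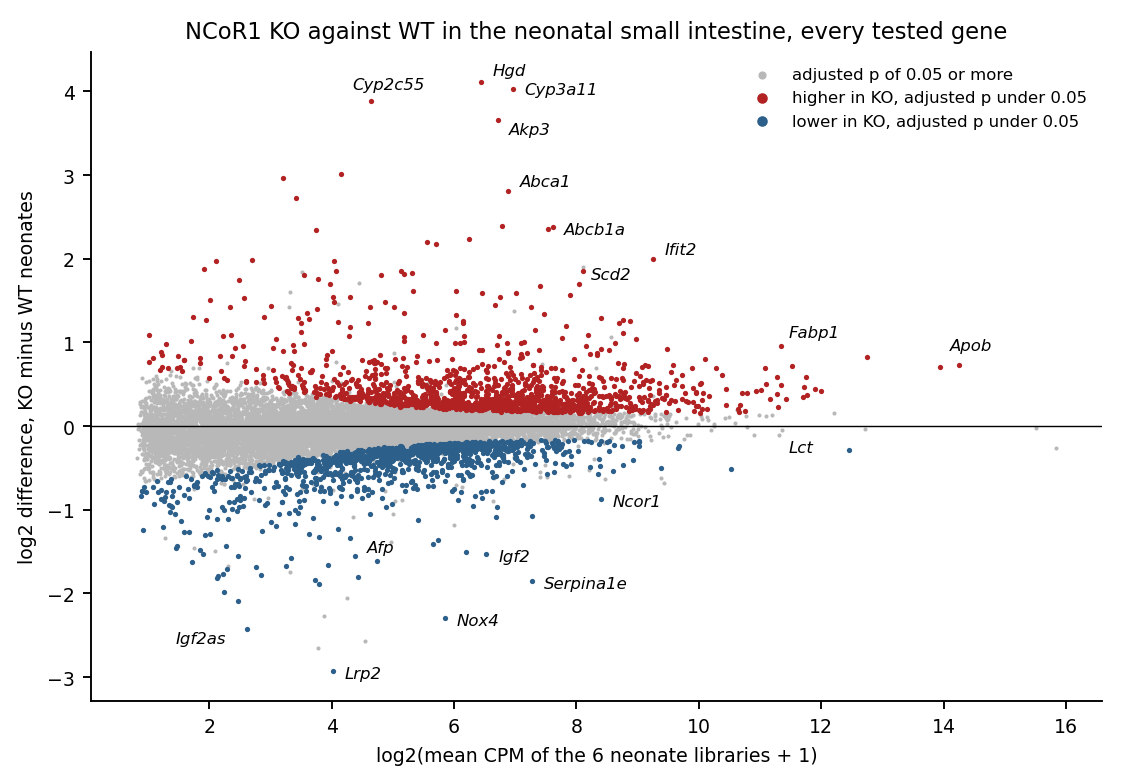
Each point is a tested gene, placed by its mean level over the 6 neonate libraries (log2 of CPM + 1) and its log2 difference between KO and WT neonates. Red points are the 1278 higher and blue points the 1093 lower genes at a limma adjusted p under 0.05, with Hgd at 4.12 and Lrp2 at -2.93 at the extremes among the labelled genes.

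The tissue's own makeup was read first from cell type markers. Of 10 enterocyte markers, 9 rose and none fell in KO neonates (median log2 difference 0.41), and their summed level was 40100.0 to 43780.0 CPM in KO and 27550.0 to 30580.0 CPM in WT libraries, most of it Apob. The structural markers rose by the least, with Vil1, the villus actin bundler villin, at 997 ± 3.24 against 815 ± 41.8 CPM and Epcam, an epithelial surface marker, at 1709 ± 91.3 against 1478 ± 79.7 CPM. The call of Epcam was lost without KO neonates 1 (0.0725), KO neonates 3 (0.0626), WT neonates 2 (0.0729) or WT neonates 3 (0.0583). Krt20, a keratin of differentiated villus cells, rose the most of these markers, to 396 ± 24.5 against 188 ± 32.7 CPM. Lct, the lactase gene, stood at 2569 ± 86.6 CPM in KO and 2664 ± 116 CPM in WT libraries and was not called (log2 difference -0.05, SE 0.054, adjusted p = 0.596); it was called lower with the deposited scaling (log2 difference -0.15, adjusted p = 0.0189). These markers of absorptive cells moved with genotype beside every group of absorptive and metabolic genes described here, and their part in those results was not tested.

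On the TMM scale, markers of other cells gave few calls. Their counts are to be set beside the shares over all tested genes, 8.99% higher and 7.69% lower. With the deposited scaling 7 of 16 myeloid and 5 of 11 fibroblast markers were lower. Summed markers of fibroblasts were 2280.0 to 2494 CPM in KO and 2428 to 2961 CPM in WT libraries, those of smooth muscle 2517 to 2901 CPM and 2446 to 3293 CPM, and the groups overlapped for both. Summed myeloid markers did not overlap, at 366 to 434 CPM in KO and 473 to 521 CPM in WT libraries. Of the 16 myeloid markers Csf1r, the macrophage growth factor receptor, and C1qb were called lower with TMM. Csf1r stood at 146 ± 17.6 CPM in KO and 218 ± 32.9 CPM in WT libraries, which made up most of the gap between the mean sums. Its call was lost without KO neonates 3 (0.094) or WT neonates 2 (0.093). Without KO neonates 1 the count was 5 lower, without KO neonates 2 it was 1, and without KO neonates 3 or WT neonates 2 it was 0. Endothelial markers had 3 of 13 higher (Emcn, Kdr and Tie1; 1 without KO neonates 2 or KO neonates 3, and 1 with the deposited scaling), and glia gave 1 lower of 9, S100b, at 14.7 ± 2.87 against 26 ± 4.37 CPM. Goblet markers had 1 of 10 higher (Tff3, 632 ± 70.2 against 512 ± 28.7 CPM; adjusted p = 0.0726 with the deposited scaling). Enteroendocrine markers had Pyy higher and Gip, the incretin hormone gene, lower at 35.1 ± 7.12 against 57.9 ± 4.5 CPM among 18 tested. The call of Pyy was lost without KO neonates 1 (0.101), WT neonates 1 (0.055) or WT neonates 3 (0.068) and with the deposited scaling (0.0977). Without KO neonates 1, and also with the deposited scaling, 3 of these markers were lower and none higher. Fibroblast, Paneth and T cell markers had 1 call each (Fn1 lower, Ang4 and Gzma higher), all lost without at least 4 of the 6 libraries in turn. None of the tuft (5 tested), B and plasma cell (6), smooth muscle (9), pancreatic acinar (14) or red blood cell (6) markers was called, and no adipocyte marker passed the filter.

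The 15 largest rises among genes that met the naming rule were those of Hgd, Cyp3a11, Cyp2c55, Cyp2c66, Akr1b7, Abca1, Ubd, Adh6a, Abcb1a, Cyp3a25, Trpv6, Cyp2c65, Ces2a, Areg and Ifit2. Hgd encodes homogentisate dioxygenase, an enzyme of tyrosine breakdown best known from liver and kidney. It had 159, 153 and 177 CPM in the KO libraries, against 9.11, 8.31 and 7.96 CPM in the WT libraries, a 19.3-fold difference (log2 difference 4.12, SE 0.082, adjusted p = 2.93e-18). It was the one call among the 10 tested genes of 16 in the list for breakdown of tyrosine and other amino acids. Trpv6, the calcium channel of the enterocyte's apical membrane, had 25.4, 26.3 and 12.8 CPM in the KO libraries, against 4.28, 2.94 and 2.69 CPM in the WT libraries (log2 difference 2.34, SE 0.28, adjusted p = 0.000868). The naming rule took only genes whose KO and WT libraries did not overlap, which held for 32.7% of all tested genes.

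**Figure D2:**
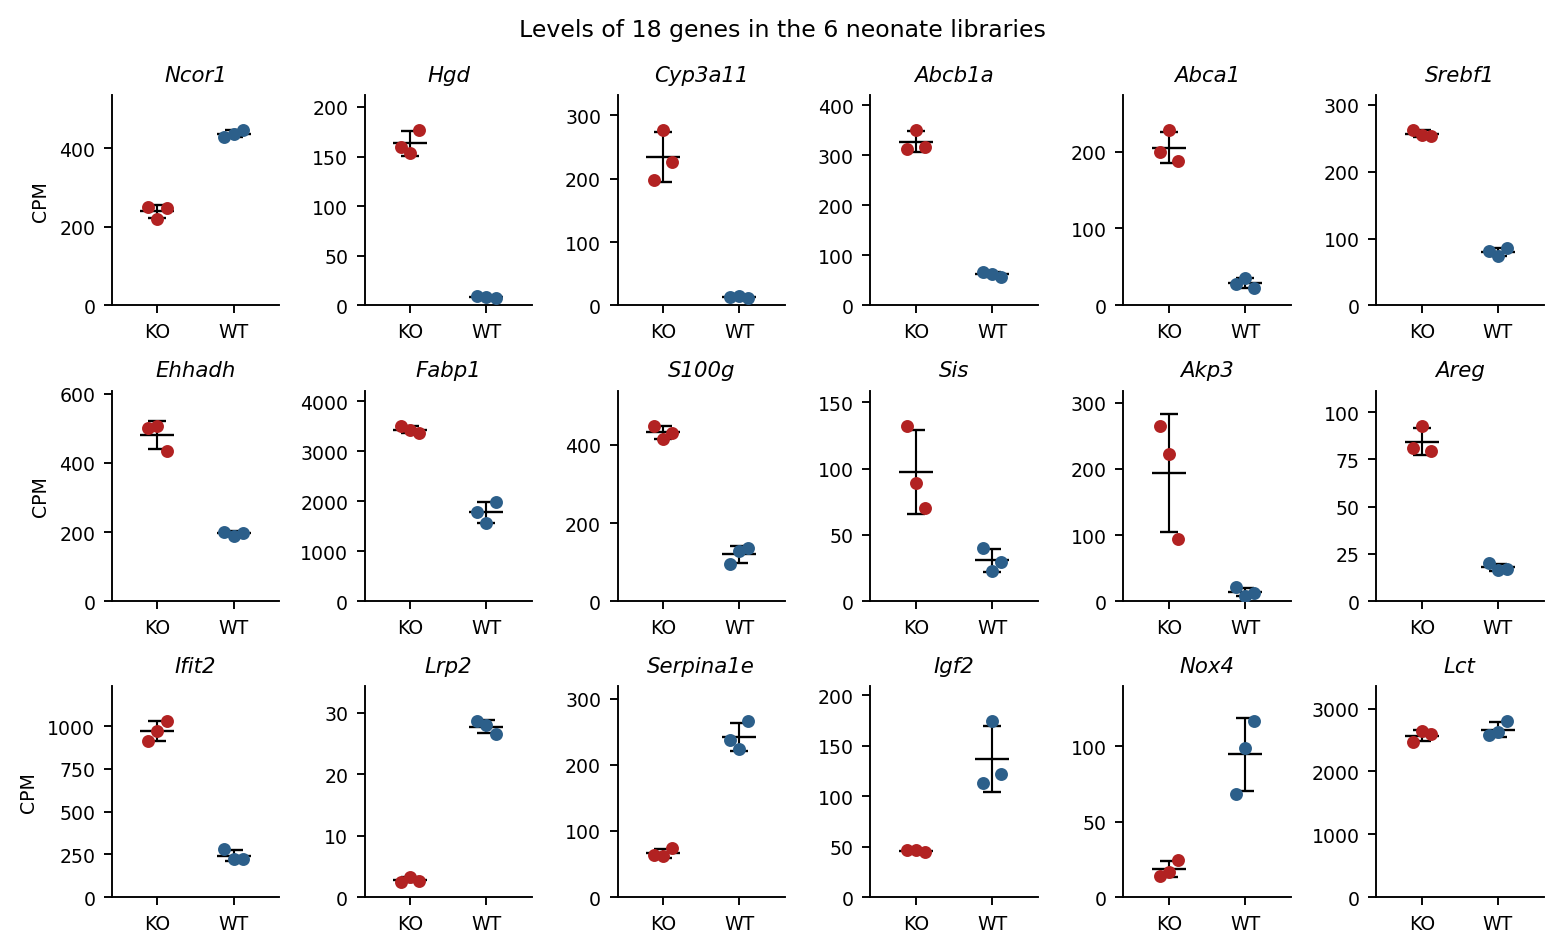
Dots give the level of 18 genes in each neonate library (CPM, linear axes starting at 0), KO left of WT, with the mean and SD of 3 libraries in black. For Hgd the KO libraries sit between 153 and 177 CPM, for Lrp2 between 2.45 and 3.24 CPM, and the groups overlap for Lct.

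The regions just upstream of 5 of the rising genes are printed here because the receptors that recruit NCoR1 bind pairs of a short hexamer, AGGTCA in its common form. The set was picked by hand and all 5 regions hold the hexamer, so it does not show how often the hexamer occurs. Fabp1 is not among the 15 largest rises. Each sequence is the 250 bases before the transcription start in RefSeq's GRCm38.p6 promoter table, found once and exactly in mm9, on the gene's own strand. Capitals mark AGGTCA or its reverse complement TGACCT.
Hgd (mm9 chr16:37579989-37580238, plus strand): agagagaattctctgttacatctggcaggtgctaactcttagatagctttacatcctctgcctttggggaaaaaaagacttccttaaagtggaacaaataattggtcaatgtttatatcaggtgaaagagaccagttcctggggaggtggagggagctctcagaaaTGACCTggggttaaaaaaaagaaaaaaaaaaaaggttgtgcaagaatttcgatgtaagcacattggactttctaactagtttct
Cyp3a11 (mm9 chr5:146691431-146691680, minus strand): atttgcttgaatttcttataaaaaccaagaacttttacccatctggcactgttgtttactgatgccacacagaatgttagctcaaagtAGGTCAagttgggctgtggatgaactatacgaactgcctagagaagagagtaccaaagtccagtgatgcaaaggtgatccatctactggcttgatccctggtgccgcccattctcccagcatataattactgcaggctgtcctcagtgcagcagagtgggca
Cyp3a25 (mm9 chr5:146821195-146821444, minus strand): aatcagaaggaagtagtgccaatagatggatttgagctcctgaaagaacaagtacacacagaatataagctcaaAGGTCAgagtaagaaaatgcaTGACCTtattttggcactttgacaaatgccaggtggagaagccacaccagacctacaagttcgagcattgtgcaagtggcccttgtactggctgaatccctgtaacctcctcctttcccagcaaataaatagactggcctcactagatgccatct
Trpv6 (mm9 chr6:41586405-41586654, minus strand): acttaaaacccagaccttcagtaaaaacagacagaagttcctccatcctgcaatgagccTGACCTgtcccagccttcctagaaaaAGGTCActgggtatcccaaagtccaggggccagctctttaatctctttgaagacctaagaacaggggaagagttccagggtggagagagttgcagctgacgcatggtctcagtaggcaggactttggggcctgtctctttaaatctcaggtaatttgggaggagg
Fabp1 (mm9 chr6:71149623-71149872, plus strand): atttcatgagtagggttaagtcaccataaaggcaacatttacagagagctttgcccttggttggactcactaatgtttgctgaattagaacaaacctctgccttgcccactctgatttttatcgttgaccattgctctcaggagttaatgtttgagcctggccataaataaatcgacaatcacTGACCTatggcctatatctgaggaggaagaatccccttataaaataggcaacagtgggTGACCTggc
The hexamer begins 84 bases before the start in Hgd and 162 bases before it in Cyp3a11. It occurs at 2 places in Cyp3a25 (from 176 and 155 bases before the start), in Trpv6 (from 191 and 165) and in Fabp1 (from 67 and 9). Of the tested genes with a window in that table, 10.8% held the hexamer on either strand, against 13.8% of all windows. The share was 15.6% of 1029 windows of genes higher in KO and 9.9% of 879 windows of lower genes. Among the largest changes, 6 of 15 windows of rising genes and 1 of 12 windows of falling genes held it. Those of Abca1, Abcb1a and Cyp2c55 were among the rising genes' windows without it. A match of these letters is a description and not evidence of binding.

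Genes that metabolize drugs and other foreign compounds rose as a broad group. Of the 45 cytochrome P450 genes of families 2 and 3 in the list, 18 passed the filter, 11 rose and 1, Cyp2w1, fell. Cyp3a11, the main mouse enzyme of the drug-oxidizing CYP3A group, had 198, 277 and 226 CPM in the KO libraries, against 12.7, 15.2 and 12.1 CPM in the WT libraries, 17.5-fold higher (log2 difference 4.03, SE 0.124, adjusted p = 2.15e-08). Cyp2c55 had 58, 56.6 and 23.4 CPM in the KO libraries, against 2.81, 1.92 and 1.29 CPM in the WT libraries (log2 difference 3.89, SE 0.448, adjusted p = 0.00673). The call of Cyp2w1 was lost without KO neonates 2, KO neonates 3, WT neonates 1 or WT neonates 2. Cyp2b10, the classical CAR target, stood at 4.0, 3.99 and 6.74 CPM in KO and 0.675, 0.203 and 0.937 CPM in WT libraries (log2 difference 1.88, SE 0.232, adjusted p = 6.2e-06); it left the tested set when any KO library was omitted, since it then passed the filter in too few libraries. Por, the electron donor of all these enzymes, rose to 174 ± 10.6 against 95.6 ± 4.11 CPM (log2 difference 0.86, SE 0.062, adjusted p = 3.99e-09). A gene that is low in WT passes the filter through its KO libraries, so these counts favour rises.

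Other oxidizing and hydrolysing enzymes rose in 19 of 32 tested genes of 40, and none fell. Adh6a, an alcohol dehydrogenase, had 216, 170.3 and 161 CPM in the KO libraries, against 46.5, 23.9 and 34.1 CPM in the WT libraries (log2 difference 2.39, SE 0.29, adjusted p = 0.00945). Ces2a, an intestinal carboxylesterase, stood at 83.9, 81 and 63.6 CPM in KO and 20.1, 12.9 and 14.9 CPM in WT libraries (log2 difference 2.20, SE 0.175, adjusted p = 0.000157). Fmo5, a flavin monooxygenase, rose to 529 ± 16.9 against 265 ± 20.9 CPM, and Adh1 to 222 ± 26.8 against 82.1 ± 8.97 CPM. Their KO and WT libraries did not overlap, as the naming rule required for Adh6a and Ces2a. Among conjugating enzymes, 22 of 42 tested genes of 51 rose and 3 fell. The sulfotransferase gene Sult1d1 stood at 589 ± 41.5 against 272 ± 10.4 CPM (log2 difference 1.11, SE 0.059, adjusted p = 3.03e-11), and Ugt1a1, which conjugates bilirubin, at 40.6 ± 1.81 against 22.9 ± 0.413 CPM (log2 difference 0.80, SE 0.082, adjusted p = 5e-07). The Ugt1a genes share their last exons, so their reads cannot be assigned with certainty to one of them, and the 7 Ugt1a rises are not independent. Glutathione transferases went both ways, as Gstm3 rose to 25.4 ± 3.64 against 6.29 ± 0.594 CPM while Gsta3 fell to 6.94 ± 0.479 against 18.9 ± 1.26 CPM and Gsta2 to 0.878 ± 0.319 against 3.51 ± 0.562 CPM.

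Among 10 efflux pump genes, 4 rose and 4 fell, or 2 and 4 with the deposited scaling. Abcb1a, the apical pump P-glycoprotein, had 312, 351 and 317 CPM in the KO libraries, against 66.8, 62.6 and 56.8 CPM in the WT libraries, 5.26-fold higher (log2 difference 2.38, SE 0.067, adjusted p = 1.38e-15). Abcg2, the breast cancer resistance protein, rose to 295 ± 11.8 against 232 ± 13.5 CPM, while the basolateral pump gene Abcc5 fell to 16.2 ± 2.39 against 22.9 ± 1.63 CPM and Abcc6 to 38.8 ± 3.89 against 52.7 ± 4.65 CPM. Without WT neonates 2 the counts were 2 higher and 2 lower, and without KO neonates 2, KO neonates 3 or WT neonates 1 they were 4 and 2. In the aryl hydrocarbon receptor pathway 1 of 6 tested genes rose, Tiparp, at 78 ± 3.0 against 49.2 ± 2.84 CPM. Targets of the oxidant sensor Nrf2 and genes of glutathione synthesis had 7 of 19 higher and 3 lower, which included Nfe2l2 itself, higher at 260.4 ± 25.4 against 179 ± 17.2 CPM, and Gclc, the rate-limiting enzyme of glutathione synthesis, lower at 40.8 ± 1.5 against 62.8 ± 9.99 CPM. Of these 10 calls 4 held in all 6 fits with a library left out, and the higher count was 3 without KO neonates 1 or WT neonates 2. These counts were 3 higher and 4 lower with the deposited scaling, and 3 and 1 with DESeq2.

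Most genes that burn fatty acids rose. In the list of mitochondrial fatty acid oxidation and ketogenesis, 17 of 24 genes were higher and 1, Acadm, was lower, with a median log2 difference of 0.29 beside -0.018 for all tested genes. Acadvl, which starts the oxidation of long chains, had 211, 207 and 215 CPM in the KO libraries, against 141, 116 and 129 CPM in the WT libraries (log2 difference 0.71, SE 0.066, adjusted p = 1.31e-07). The carnitine carrier gene Slc25a20 rose to 209.8 ± 1.45 against 131 ± 12.3 CPM. Acadm, which handles medium chains, fell to 84.8 ± 2.23 against 104 ± 6.18 CPM (log2 difference -0.29, SE 0.063, adjusted p = 0.00245). In peroxisomes 20 of 32 genes rose and none fell. Ehhadh, the bifunctional enzyme of peroxisomal oxidation, had 501, 508 and 435 CPM in the KO libraries, against 201, 189 and 198 CPM in the WT libraries (log2 difference 1.29, SE 0.061, adjusted p = 6.03e-12). With the deposited scaling the counts were 13 higher and 1 lower in mitochondria and 13 higher and 3 lower in peroxisomes.

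Of the remaining PPAR-alpha targets, 14 of 19 tested genes rose and none fell (median 0.58). Pdk4, a kinase that restrains glucose oxidation, stood at 339, 348 and 378 CPM in KO and 124, 105 and 129 CPM in WT libraries (log2 difference 1.57, SE 0.071, adjusted p = 3.03e-11). Vnn1, a pantetheinase, rose to 60.9 ± 8.2 against 16.6 ± 3.6 CPM, Retsat to 130.4 ± 9.87 against 43.2 ± 7.94 CPM and the lipid droplet coat gene Plin2 to 933 ± 51.7 against 493 ± 25.3 CPM. Fabp1, the liver-type fatty acid binding protein whose promoter is printed above, had 3515, 3436 and 3360.4 CPM in the KO libraries, against 1792, 1566 and 1979 CPM in the WT libraries (log2 difference 0.96, SE 0.069, adjusted p = 2.76e-08). The receptor gene Ppara was itself higher, at 96.4 ± 12.7 against 45.1 ± 4.06 CPM (log2 difference 1.07, SE 0.089, adjusted p = 3.7e-07). Nuclear genes of the respiratory chain shifted by small amounts, with 39 of 82 higher and none lower and a median of 0.21. That count depended on scaling and single libraries: it was 17 higher and 2 lower with the deposited scaling, 25 without WT neonates 1 and 27 without WT neonates 2. Cox7a1 stood apart in this list at 12.6 ± 0.333 against 6.37 ± 1.24 CPM (log2 difference 0.90, SE 0.141, adjusted p = 0.000109).

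LXR targets that move sterols out of the cell were among the clearest changes. Of 12 genes in the list, 6 rose and 1 fell. Abca1, which loads cholesterol onto apolipoprotein A-I, had 199, 228 and 188 CPM in the KO libraries, against 27.6, 35.8 and 22.8 CPM in the WT libraries, 7.14-fold higher (log2 difference 2.81, SE 0.178, adjusted p = 0.00032). Abcg5 and Abcg8, whose products pair to pump sterols back into the gut lumen, rose to 582 ± 13 against 247 ± 12.6 CPM and to 610.4 ± 12.3 against 254 ± 18.2 CPM. Lpcat3, which remodels membrane phospholipids for chylomicron output, rose to 679 ± 8.12 against 330.3 ± 8.53 CPM. Nr1h3, the gene of LXR-alpha, fell to 16.3 ± 0.506 against 22.7 ± 1.72 CPM (log2 difference -0.45, SE 0.099, adjusted p = 0.00261). Srebf1, the LXR target that drives fatty acid synthesis, had 262, 254 and 254 CPM in the KO libraries, against 80.9, 73.4 and 85.5 CPM in the WT libraries (log2 difference 1.67, SE 0.062, adjusted p = 1.35e-13).

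In the fatty acid synthesis list 8 of 20 tested genes rose and none fell. Scd2, a desaturase, had 404, 435 and 367 CPM in the KO libraries, against 121, 129 and 117 CPM in the WT libraries (log2 difference 1.70, SE 0.064, adjusted p = 1.57e-13), and Me1, which supplies NADPH, rose to 98.3 ± 10.0 against 40.7 ± 6.18 CPM. Fasn, the fatty acid synthase gene, stood at 61.1 ± 8.69 against 63.3 ± 3.86 CPM (log2 difference -0.06, SE 0.086, adjusted p = 0.737) and was not called. Cholesterol synthesis gave 1 rise and 1 fall in 23 tested genes, Insig1 at 86.5 ± 9.52 against 64.5 ± 9.36 CPM and Dhcr7 at 15 ± 1.59 against 22.9 ± 2.49 CPM. Under the deposited scaling 1 was higher and 5 were lower. The call of Insig1 was lost without KO neonates 1 (0.129), KO neonates 2 (0.0821) or WT neonates 1 (0.0505), and 3 genes were lower without KO neonates 2. Fat absorption and chylomicron assembly had 11 of 21 higher and 1 lower. Apob, the protein on which chylomicrons are built, had 22549, 25807 and 25131 CPM in the KO libraries, against 14296, 14139.8 and 15674 CPM in the WT libraries (log2 difference 0.74, SE 0.063, adjusted p = 4.35e-08), and Mttp, which loads it with lipid, rose to 4131 ± 329.9 against 2752 ± 209 CPM. The sole lower gene was Mogat1, at 0.602 ± 0.151 against 3.95 ± 0.498 CPM; its call was lost without WT neonates 1 (not tested), WT neonates 2 (not tested) or WT neonates 3 (not tested).

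Transport of bile acids, calcium and iron changed in part. Of 6 genes of bile acid transport and FXR targets, 5 rose. Fgf15, the hormone by which the ileum signals bile acid return to the liver, stood at 115, 96 and 82.8 CPM in KO and 47.8, 41.4 and 34.1 CPM in WT libraries (log2 difference 1.23, SE 0.164, adjusted p = 0.00397), and the basolateral exporter subunit gene Ostb (Slc51b) rose to 89.2 ± 6.0 against 59.1 ± 4.45 CPM. Without KO neonates 3, 3 of the 6 were called. All 4 tested genes of the 8 in the vitamin D and calcium list rose, which were Trpv6, S100g, Slc30a10 and Atp2b1. S100g, the calcium ferry calbindin-D9k, had 449, 415 and 430.4 CPM in the KO libraries, against 94.3, 128 and 137 CPM in the WT libraries (log2 difference 1.86, SE 0.147, adjusted p = 0.000672). The receptor gene Vdr stood at 69.6 ± 8.55 against 58.6 ± 3.44 CPM (log2 difference 0.24, SE 0.08, adjusted p = 0.0471), a call lost without KO neonates 1 (0.262), KO neonates 3 (0.0521), WT neonates 2 (0.196) or WT neonates 3 (0.0992). Retinoid genes had 7 of 15 tested higher and 2 lower. Aldh1a1, which makes retinoic acid, rose to 193 ± 10.6 against 63.9 ± 9.39 CPM (log2 difference 1.59, SE 0.088, adjusted p = 2.5e-08), and Lrat, which stores retinol as ester, fell to 185 ± 5.63 against 255 ± 30.2 CPM (log2 difference -0.46, SE 0.069, adjusted p = 0.000115). None of 6 thyroid hormone responsive genes was called. Of 10 iron genes 3 rose, among them the exporter ferroportin, Slc40a1, at 1224 ± 123 against 927 ± 72 CPM, and Trf fell.

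Nuclear receptor genes rose in 9 of 30 tested cases and fell in 2. Besides Ppara, these were Nr1i2 (the PXR gene), at 164 ± 12.3 against 106 ± 4.53 CPM, Ppard, Hnf4g, Nr3c2, Nr1h4 (the FXR gene), Vdr, Nr0b2 and Nr1d1. The lower genes were Nr1h3 and Rxra, the shared partner receptor, at 80.6 ± 2.72 against 99.2 ± 2.24 CPM (log2 difference -0.30, SE 0.06, adjusted p = 0.00144). Without the 3 calls that single libraries decided (Nr1d1, Nr0b2 and Vdr), 6 higher genes were left.

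Digestive enzymes of the brush border rose, including some that the intestine normally acquires at weaning. Of 20 tested genes for brush border peptidases, phosphatases and scaffold, 15 rose and 3 fell (median 0.39). Tmprss15, enteropeptidase, which starts the activation of pancreatic proteases, had 54.6, 64.7 and 42 CPM in the KO libraries, against 18.8, 11.2 and 12.9 CPM in the WT libraries (log2 difference 1.85, SE 0.243, adjusted p = 0.0059). Enpep, a glutamyl aminopeptidase, rose to 713 ± 17.3 against 433 ± 5.67 CPM and Mme to 449 ± 45.2 against 303 ± 38.3 CPM. Akp3, an alkaline phosphatase of the mature duodenum, stood at 265, 222 and 93.4 CPM in KO and 21.1, 8.41 and 12.4 CPM in WT libraries (log2 difference 3.66, SE 0.57, adjusted p = 0.0208). Its groups did not overlap, its KO libraries differed widely among themselves, and its call was lost without KO neonates 1 (0.0693), KO neonates 2 (0.0761), WT neonates 2 (0.0765) or WT neonates 3 (0.0826). The lower genes were Xpnpep2, Espn and Naaladl1.

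Sucrase-isomaltase, Sis, which digests starch and sucrose after weaning, had 132, 89.3 and 70.4 CPM in the KO libraries, against 40.2, 22.6 and 29.6 CPM in the WT libraries (log2 difference 1.62, SE 0.342, adjusted p = 0.0485). Every KO library exceeded every WT library, but the call was lost on leaving out any 1 library (adjusted p up to 0.148) and with the deposited scaling (0.0504). Mgam, maltase-glucoamylase, rose to 356 ± 3.63 against 234 ± 9.82 CPM (log2 difference 0.60, SE 0.054, adjusted p = 7.82e-08). Treh, trehalase, stood at 14.3 ± 3.61 against 11.9 ± 1.96 CPM (log2 difference 0.22, SE 0.174, adjusted p = 0.46) and was called only in the fit without KO neonates 3 (adjusted p = 0.0461). Arg2, an arginase gene, stood at 32.3, 24.8 and 15.1 CPM in KO and 12.1, 4.86 and 7.61 CPM in WT libraries (log2 difference 1.46, SE 0.44, adjusted p = 0.112) and was not called by limma, but it was by edgeR (adjusted p = 0.00186) and DESeq2 (0.0138). Akp3, Tmprss15, Sis, Arg2, Trpv6 and Cyp2c55 shared a pattern between libraries. For each, KO neonates 3 was the lowest KO library and WT neonates 1 the highest WT library. The values of these genes may thus not be independent of each other, which was not tested. In sugar handling 6 of 15 tested genes rose and none fell, or 6 and 2 with the deposited scaling. Slc5a1, the sodium-glucose cotransporter, rose to 1028 ± 121 against 670.4 ± 36.7 CPM, and G6pc, the last step of glucose release, had 633, 668 and 671 CPM in the KO libraries, against 277, 257 and 293 CPM in the WT libraries (log2 difference 1.25, SE 0.057, adjusted p = 3.13e-12). Amino acid and peptide transporters had 7 of 19 higher and 1 lower, or 6 and 3 with the deposited scaling. The peptide transporter gene Slc15a1 rose to 198 ± 2.59 against 136 ± 9.35 CPM, and the neutral amino acid transporter gene Slc43a2 fell to 204 ± 9.87 against 278 ± 7.18 CPM. Arginine and citrulline synthesis had Nags higher and Odc1 lower among 14, the second lost without KO neonates 1 (0.131), KO neonates 3 (0.0791), WT neonates 1 (0.0944) or WT neonates 3 (0.115). In this list 1 was higher and 6 were lower with the deposited scaling.

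**Figure D3:**
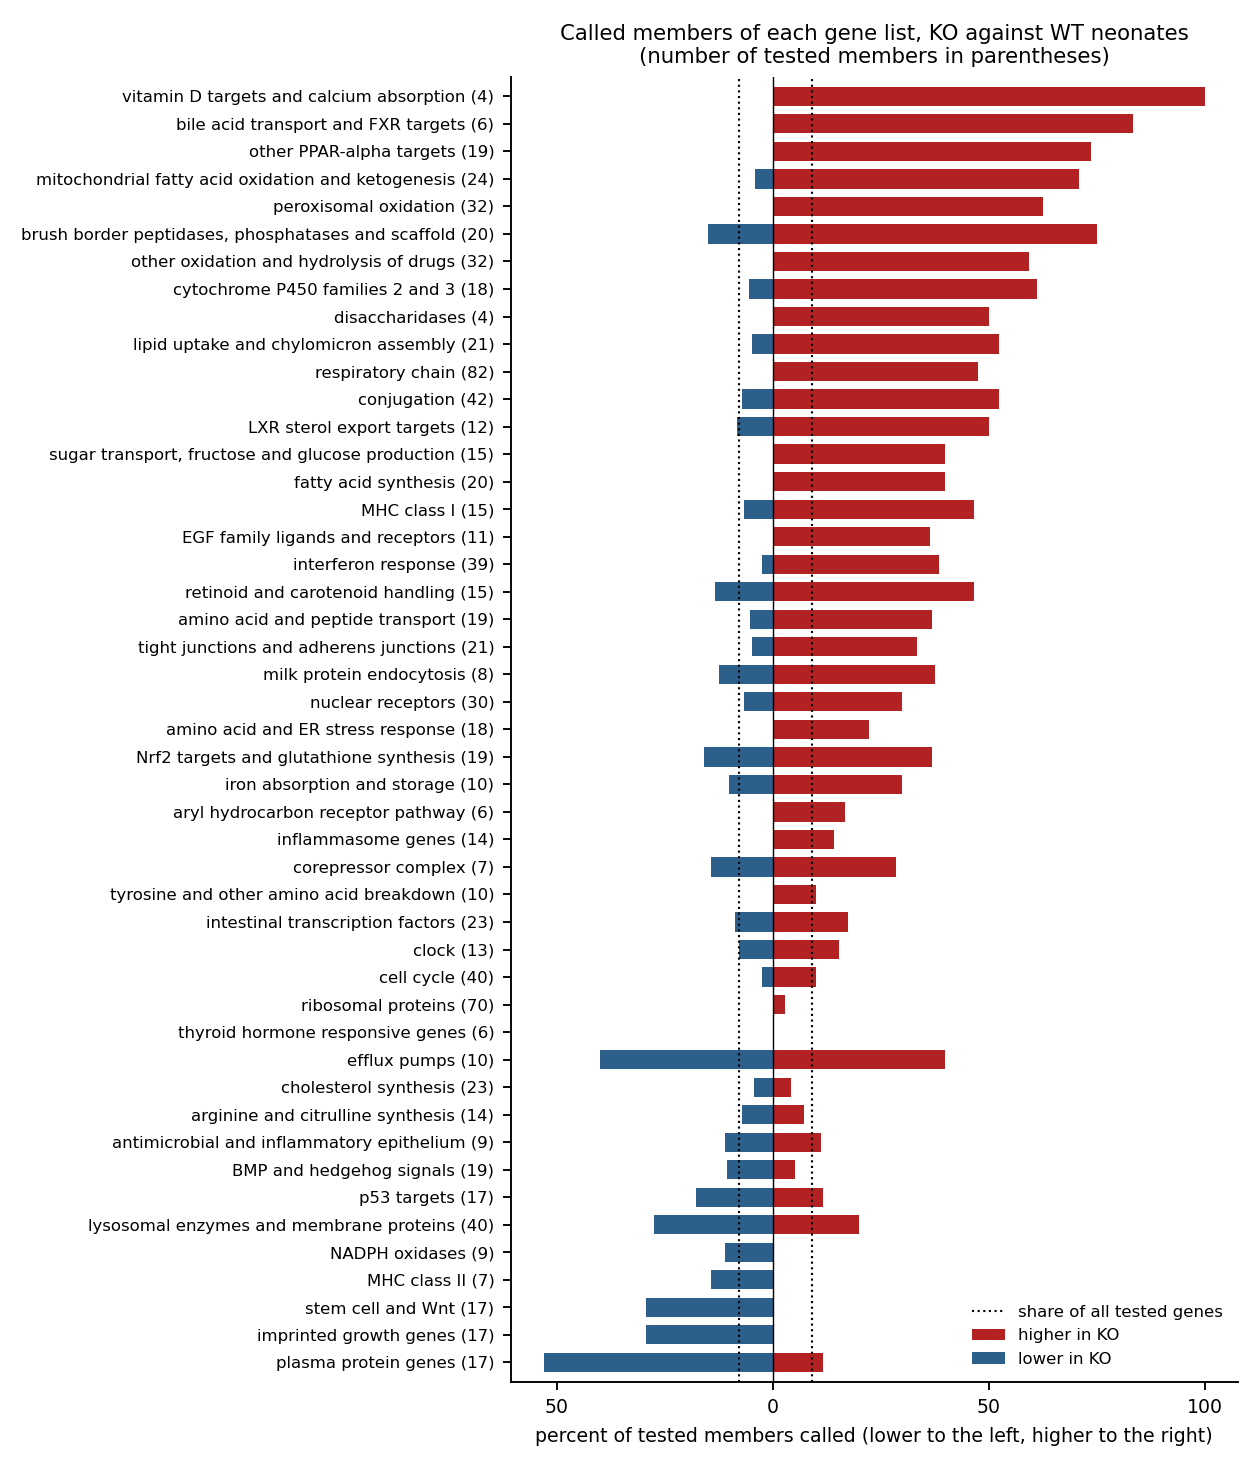
Bars give the percent of tested members called higher (right, red) and lower (left, blue) in KO neonates for each of 47 gene lists, with the number of tested members in parentheses. Dotted lines mark the shares over all tested genes, 8.99% higher and 7.69% lower; the vitamin D and calcium list (4 of 4) and the bile acid list (5 of 6) extend furthest to the right and the plasma protein list (9 of 17) furthest to the left.

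Functions of the suckling enterocyte did not move as a block. Lrp2, the endocytic receptor megalin, had the largest fall of all named genes on the log2(CPM + 1) scale, with 2.45, 3.24 and 2.66 CPM in the KO libraries, against 28.6, 28.1 and 26.6 CPM in the WT libraries, 9.96-fold higher in WT (log2 difference -2.93, SE 0.132, adjusted p = 2.88e-12). Its partner cubilin, Cubn, rose to 1222 ± 87.1 against 860.4 ± 27.3 CPM (log2 difference 0.50, SE 0.058, adjusted p = 2.51e-06), and Dab2, the adaptor that links both to endocytosis, to 825 ± 72.6 against 665 ± 24.8 CPM. Fcgrt, the neonatal Fc receptor that carries milk antibodies, stood at 5010.2 ± 263 against 4503 ± 265 CPM (log2 difference 0.15, SE 0.059, adjusted p = 0.081). Of 40 lysosomal genes 8 rose and 11 fell, or 6 and 19 with the deposited scaling. The genes that rose included the cathepsin genes Ctsb, at 2577 ± 157 against 1816 ± 107 CPM, and Ctsz, at 901 ± 56.5 against 641 ± 24 CPM. Those that fell included Glb1, acid beta-galactosidase, at 278 ± 17.4 against 389 ± 19.6 CPM, and Gusb, beta-glucuronidase, at 134 ± 8.61 against 184 ± 16.3 CPM. Among intestinal transcription factors 4 of 23 rose and 2 fell, of which Onecut2 and Elf3 held without any 1 library. The split was 3 higher and 6 lower with the deposited scaling. Prdm1, a repressor known to hold the suckling program, stood at 169 ± 13 against 149 ± 12.9 CPM (log2 difference 0.18, SE 0.069, adjusted p = 0.0851).

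The largest falls under the naming rule, after Lrp2, included those of Igf2as, Tmprss6, Ryr1, Serpina1e, Sucnr1, C8b, Fga, Bmp8a, Abca13, Rbfox3, Elovl2, Arhgap44 and Lrrc4. Several encode plasma proteins that the adult makes in the liver. Of 29 genes in the plasma protein list, 17 passed the filter, 9 fell and 2 rose, beside 7.69% lower and 8.99% higher over all tested genes. A gene that is low in KO can pass the filter through its WT libraries, so this count favours falls. Serpina1e, an alpha-1 antitrypsin gene, had 63.3, 62 and 74.3 CPM in the KO libraries, against 237, 224 and 265 CPM in the WT libraries (log2 difference -1.85, SE 0.075, adjusted p = 1.15e-11). The Serpina1 genes are near-identical copies, so reads may be assigned to the wrong member: Serpina1a and Serpina1d fell too, while Serpina1b was higher, at 19 ± 2.0 against 14.3 ± 1.14 CPM. The call of Serpina1b was lost without KO neonates 1 (0.0855), KO neonates 3 (0.0811), WT neonates 1 (0.0524) or WT neonates 2 (0.0962), with the deposited scaling (0.0754) and with DESeq2 (0.0944), and that of Serpina1a without KO neonates 2 (0.0519). Afp, alpha-fetoprotein, stood at 11.1, 7.72 and 10.1 CPM in KO and 32.1, 29 and 29.2 CPM in WT libraries (log2 difference -1.56, SE 0.119, adjusted p = 9.47e-09), C8b, a complement component, at 8.63 ± 1.45 against 32.5 ± 4.81 CPM, and Fga, a fibrinogen chain, at 1.02 ± 0.552 against 5.81 ± 0.446 CPM. Tmprss6, the protease that restrains hepcidin in liver, fell to 1.1 ± 0.248 against 7.95 ± 1.26 CPM. Ttr, transthyretin, went the other way, with 324, 299 and 317 CPM in the KO libraries, against 119, 152 and 141 CPM in the WT libraries (log2 difference 1.19, SE 0.074, adjusted p = 1.21e-08). Alb, the albumin gene, stood at 1.05 ± 0.265 against 6.87 ± 6.02 CPM (log2 difference -1.67, SE 0.578, adjusted p = 0.137). It was called lower by edgeR (adjusted p = 0.0131), by DESeq2 (0.0111) and by limma without WT neonates 1 (0.00658) or WT neonates 2 (0.00696). Without WT neonates 1 or WT neonates 2 the list had 7 lower and 1 higher genes.

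Imprinted growth genes fell in 5 of 17 tested cases and none rose, and all 5 calls held without any 1 library. Igf2, the fetal growth factor, had 46.5, 46.6 and 44.7 CPM in the KO libraries, against 113, 174 and 122 CPM in the WT libraries (log2 difference -1.52, SE 0.166, adjusted p = 0.0023). Plagl1, an imprinted transcription factor gene, fell to 65.3 ± 12.3 against 139 ± 16.5 CPM, Cdkn1c, a cell cycle inhibitor, to 160.0 ± 14.2 against 235 ± 31.9 CPM, and Igf2r to 394 ± 11.5 against 466 ± 3.83 CPM. H19, the noncoding neighbour of Igf2, stood at 48.1 ± 6.21 against 81.4 ± 25.6 CPM (log2 difference -0.71, SE 0.27, adjusted p = 0.185). It was called lower by edgeR (adjusted p = 0.0101) and by limma without WT neonates 1 (0.0243) or WT neonates 2 (0.0398). Igf2as overlaps Igf2 on the opposite strand, at 0.869 ± 0.222 against 9.32 ± 3.52 CPM; counting used strand per the file headers. Nox4, an NADPH oxidase gene, stood at 14.2, 16.7 and 24.8 CPM in KO and 68.6, 98.9 and 116 CPM in WT libraries (log2 difference -2.29, SE 0.308, adjusted p = 0.0127); its groups did not overlap, and the call was lost without KO neonates 2 (0.0568) or WT neonates 2 (0.0611). It was the one call among 9 tested NADPH oxidase genes.

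Genes of the interferon response rose in 15 of 39 tested cases and fell in 1. Ifit2 had 911, 973 and 1028 CPM in the KO libraries, against 284, 225 and 221 CPM in the WT libraries (log2 difference 2.0, SE 0.091, adjusted p = 1.22e-07). Ubd, the ubiquitin-like modifier FAT10, stood at 20.5, 17.7 and 14.7 CPM in KO and 2.14, 1.42 and 1.87 CPM in WT libraries (log2 difference 2.73, SE 0.165, adjusted p = 2.58e-10). Ifit3 rose to 92.5 ± 7.62 against 36.8 ± 7.44 CPM and Oasl1 to 109 ± 7.7 against 58.1 ± 8.88 CPM. Of the 15 rises 10 held without any 1 library, and the count ranged from 11 without WT neonates 3 to 18 without KO neonates 2. The fall was that of Bst2, lost without KO neonates 1 (0.107), KO neonates 2 (0.156), WT neonates 1 (0.116), WT neonates 2 (0.108) or WT neonates 3 (0.0792). MHC class I genes had 7 of 15 higher and 1 lower. H2-Q10 stood at 17.2 ± 1.26 against 4.23 ± 0.329 CPM (log2 difference 1.80, SE 0.133, adjusted p = 5.82e-09), H2-K1 at 934 ± 18.3 against 638 ± 11.3 CPM and B2m, their shared light chain, at 3036 ± 99.8 against 2168 ± 109.9 CPM. These genes are close relatives, and reads of 36 bases may not always tell them apart. Class II genes had 1 lower of 7, H2-Aa, whose groups overlapped.

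Genes of growth signals, defence and junctions changed in part. Over all tested genes 8.99% were higher and 7.69% lower, and in the EGF list 4 of 11 tested genes were higher. In the EGF family Areg, amphiregulin, had 81.1, 92.8 and 79.4 CPM in the KO libraries, against 20.1, 16.5 and 17.2 CPM in the WT libraries (log2 difference 2.17, SE 0.088, adjusted p = 4.94e-13) and Ereg, epiregulin, rose to 14.7 ± 0.894 against 5.73 ± 0.984 CPM; Erbb2 and Erbb3 were higher by less, and 2 of the 4 calls were left without KO neonates 3. With the deposited scaling 2 genes were higher and 1 lower. In the BMP and hedgehog list Bmp8a fell to 2.24 ± 0.470 against 10.1 ± 1.25 CPM (log2 difference -1.78, SE 0.171, adjusted p = 2.1e-07) and Bmp3 to 15.8 ± 0.775 against 21.3 ± 0.887 CPM among 19, and Bmpr1a was higher in a call lost without KO neonates 2 (0.168), KO neonates 3 (0.0568), WT neonates 1 (0.169), WT neonates 2 (0.057) or WT neonates 3 (0.0784). Under the deposited scaling 4 were lower and none higher. Inflammasome genes gave Gsdmd, the pore former, at 353 ± 12.5 against 269 ± 16.9 CPM, and Nlrc4 among 14. The call of Nlrc4 was lost without KO neonates 1 (0.178), WT neonates 2 (0.14) or WT neonates 3 (0.0813), with the deposited scaling (0.255) and with DESeq2 (0.0688). In the antimicrobial list Reg3a rose to 6.05 ± 2.2 against 2.2 ± 0.275 CPM and Reg4 fell to 66.5 ± 8.97 against 88.6 ± 8.81 CPM among 9 tested. Tight and adherens junction genes had 7 of 21 higher, with Cldn3 at 116 ± 4.81 against 70.2 ± 9.49 CPM and Cdh1, E-cadherin, at 818 ± 18.2 against 594 ± 35.7 CPM, and Cldn12 lower in a call lost without KO neonates 1 (0.0541), KO neonates 3 (0.0882), WT neonates 1 (0.066) or WT neonates 3 (0.128).

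The lists that follow are to be set beside shares of 8.99% higher and 7.69% lower over all tested genes. Rises among cell cycle genes were near that share. Of 40 in the list 4 rose and 1 fell, while 30 had a positive log2 difference (median 0.14, beside -0.018 for all tested genes), with Aurka at 10.4 ± 1.42 against 6.62 ± 0.844 CPM and Mcm2 at 30.8 ± 1.73 against 41.1 ± 0.695 CPM. Mki67 stood at 249 ± 6.1 against 244 ± 15.5 CPM (log2 difference 0.03, SE 0.057, adjusted p = 0.802) and Cdkn1a, the p53 target, at 59.1 ± 12.4 against 53.9 ± 2.78 CPM (log2 difference 0.11, SE 0.129, adjusted p = 0.644). Stem cell and Wnt genes had 5 of 17 lower and none higher. These were Ephb2, at 52.7 ± 1.55 against 68.2 ± 4.88 CPM, Ephb3, Bmi1, Olfm4 and Lgr5, the crypt base stem cell marker, at 22 ± 0.890 against 27.2 ± 1.42 CPM. Of these only Ephb2 held without any 1 library, and the count was 2 without WT neonates 1 or WT neonates 2. Clock genes had Nfil3 and Npas2 higher and Cry2 lower among 13, and the call of Npas2 was lost without KO neonates 2 (0.0633), KO neonates 3 (0.0705) or WT neonates 2 (0.123). Clock genes had 1 higher and 2 lower with the deposited scaling. The p53 targets had Pmaip1 and Fas higher and 3 lower among 17, Ccng1 at 99.6 ± 4.66 against 145 ± 7.01 CPM with the lowest adjusted p of these. Without KO neonates 3 or WT neonates 1 there was 1 lower p53 target, and with the deposited scaling there were 5. Amino acid and ER stress genes had 4 of 18 higher, of which Ddit3, at 76.6 ± 6.25 against 54.8 ± 1.8 CPM, held without any 1 library. Without WT neonates 1 or WT neonates 2 the count was 2, and with the deposited scaling 1 was higher and 1 lower. Of 70 ribosomal protein genes 2 were higher, or 4 lower with the deposited scaling.

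Called genes were spread over the genome. The share of tested genes that rose ranged from 6.62% on the X chromosome to 13.0% on chromosome 19 among chromosomes with over 100 tested genes, and the share that fell from 4.91% on chromosome 8 to 10.9% on the X. Chromosome 11, which carries Ncor1, had 9.59% higher and 6.22% lower. Within 5 Mb of Ncor1, 8 of 106 other tested genes rose and 2 fell, Galnt10 and Arhgap44. Arhgap44 (mm9 chr11:64815541-64976463) stood at 4.0, 3.99 and 2.66 CPM in KO and 12.1, 15.6 and 12.5 CPM in WT libraries (log2 difference -1.67, SE 0.162, adjusted p = 2.43e-07). Of the 8 that rose, Srebf1 (mm9 chr11:60012591-60034106) had the largest difference.

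The same comparison was made in adults, and the effects at both ages were tested against each other. In KO adults 1329 of 13417 tested genes were higher (9.91%) and 855 lower (6.37%). The KO-minus-WT difference was more positive in neonates for 319 of 14524 genes (2.2%) and more negative for 466 (3.21%). The tables of both ages were scaled separately, so each effect was taken within its age and only the effects were compared. Hgd had 0.279 ± 0.0377 CPM in KO and 0.143 ± 0.0897 CPM in WT adults (difference of effects 3.95, SE 0.184, adjusted p = 9.33e-11). It was too low for the adult test, and at such levels log2(CPM + 1) leaves little room for an adult effect. The difference therefore mostly restates the neonate effect of 4.12. Cyp3a11 stood at 2029 ± 347 CPM in KO and 759 ± 246 CPM in WT adults; its effect was 2.58 larger on the log2 scale in neonates (adjusted p = 0.00346). Cyp2b10 had 247 ± 49.6 CPM in KO and 425 ± 96.9 CPM in WT adults, and its effect was 1.88 in neonates and -0.77 in adults (difference 2.65, SE 0.379, adjusted p = 0.00475). Plb1 and Nlrp1b were the other 2 of the 5 largest positive differences; both fell in KO adults (-2.52 and -2.79) and neither was called in neonates, where Plb1 did not pass the filter.

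The 5 largest negative differences included those of Lrp2 (-2.89), Ces2b (-2.34), Ryr1 (-2.17) and Tmprss6 (-2.13). Lrp2 had 1.02 ± 0.506 CPM in KO and 1.09 ± 0.526 CPM in WT adults, Ryr1 0.580 ± 0.262 CPM in KO and 0.380 ± 0.0425 CPM in WT adults and Tmprss6 0.356 ± 0.193 CPM in KO and 0.314 ± 0.109 CPM in WT adults, all too low for the adult test. For these genes too the difference mostly restates the neonate effect. Ces2b rose at both ages and by more in adults, to 107 ± 30.3 CPM in KO and 7.56 ± 2.48 CPM in WT adults. Abcb1a had 763 ± 101 CPM in KO and 658 ± 115 CPM in WT adults (adult log2 difference 0.22), and its effect was larger in neonates (difference 2.16, SE 0.168, adjusted p = 7.85e-06). Ifit2 had 4.47 ± 0.870 CPM in KO and 4.45 ± 0.679 CPM in WT adults (difference 2.0, SE 0.175, adjusted p = 1e-05). Sis had 6828 ± 674 CPM in KO and 7319.6 ± 252 CPM in WT adults and an effect of -0.10 in adults (difference 1.72, SE 0.353, adjusted p = 0.0275). Abca1 rose at both ages, by 2.81 in neonates and 2.01 in adults, without a called difference (adjusted p = 0.28). Lct fell in adults (1062 ± 46.2 CPM in KO and 1911 ± 188 CPM in WT adults, log2 difference -0.84) and the effects differed (difference 0.79, SE 0.104, adjusted p = 0.00013).

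**Figure D4:**
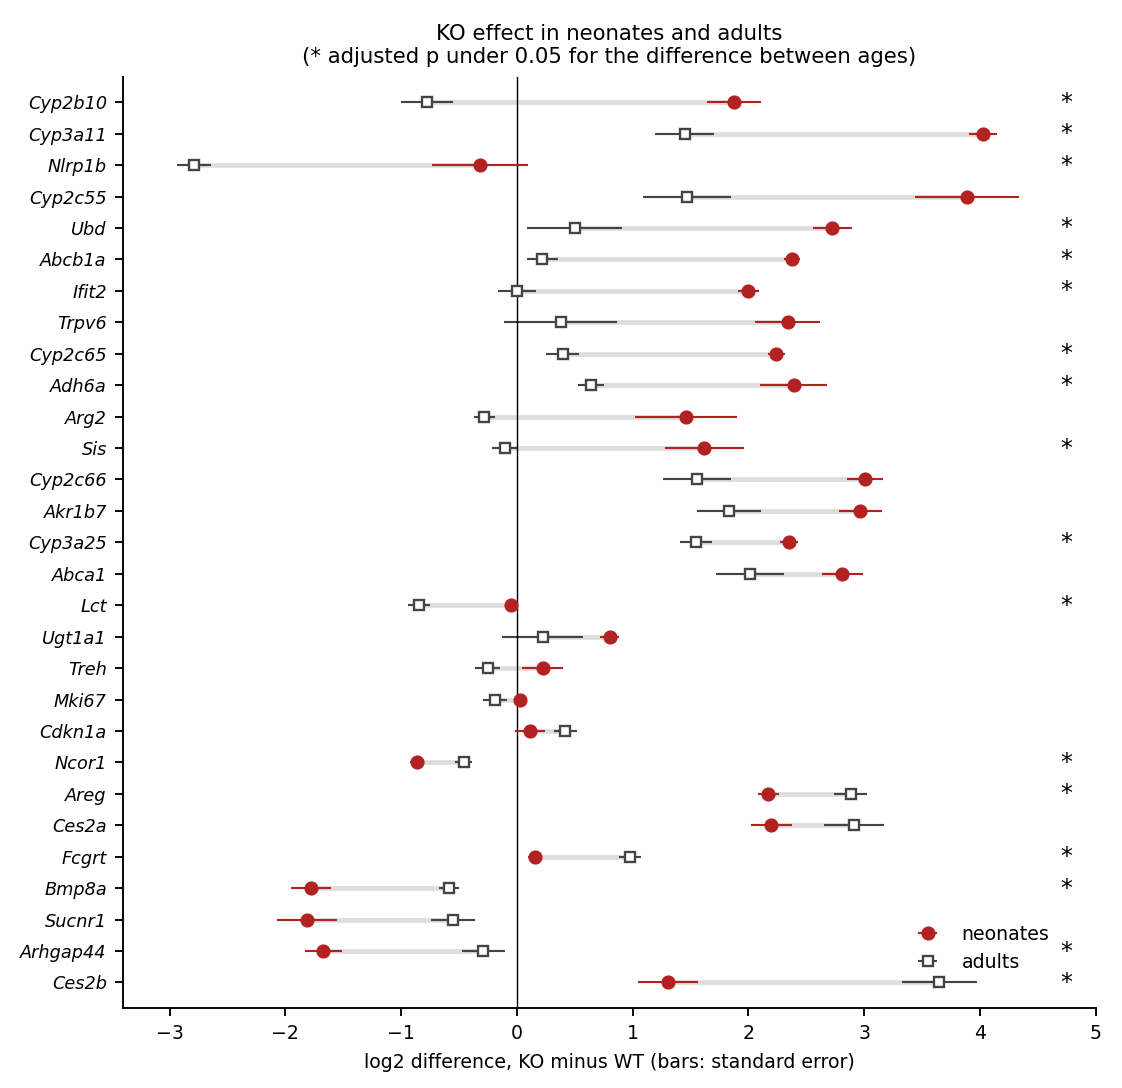
Each row gives the log2 difference between KO and WT with its standard error in neonates (red dots) and in adults (open squares). The 29 genes drawn were tested at both ages and are ordered by the difference. They were taken from the largest changes, the fixed genes and the largest age differences. Some were thus picked for a called age difference, so the number of asterisks is not a rate. Asterisks mark the 17 genes whose effects differed at a limma adjusted p under 0.05; Cyp2b10 is the top row with 1.88 in neonates and -0.77 in adults.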

How the data were processed

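RNA was measured in 12 libraries, of which the 6 of neonates are described here and the 6 of adults serve the comparison between ages. Reads were aligned by Bowtie 0.12.2 to mm9, per the submitters' processing notes, and HOMER counted those over exons, opposite strand only, per the file headers. No source used here says how reads with several matches were treated. The columns the authors deposited as reads hold a signal: read counts multiplied by 1 factor per library so that all libraries of a table have the same sum (about 8079436 in neonates and 11700295 in adults). In neonates at least 99.98% of values were whole multiples of the value of 1 read within 0.01 deposited units, and whole reads were recovered for count tests. The authors' fold changes, false discovery rates and lists of changed genes were not used.

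To obtain CPM, each value was divided by its library total and TMM factor (0.9511 to 0.9785 in KO and 1.0114 to 1.0564 in WT neonates) and multiplied by 1e+06. These were tested as log2(CPM + 1) with limma 3.58.1 (trended, robust) in R 4.3.3, keeping genes that reached 1 CPM in 3 or more libraries, with Benjamini-Hochberg adjustment over all tested genes. limma was the main test because the deposited values are normalized; edgeR 4.0.16 and DESeq2 1.42.0 on recovered reads were alternatives. The difference between ages came from a single fit of 4 groups, with each table scaled on its own. The fit was tested on simulated data in which a small set of genes changed by known folds. Those data had no built-in shift in composition between genotypes, so the test does not bear on the choice of scaling. Named genes are Ncor1; the 15 largest rises and falls among called genes with a mean of at least 5 CPM in the higher group, no overlap between KO and WT libraries, a call in each fit that left out 1 library and no provisional symbol; up to 4 members per list with the lowest adjusted p; 11 fixed genes; and the 5 largest age differences in each direction. Some genes that these rules name are not reported here. Other genes were named after their values were seen. The comparison, the 62 gene lists and these rules were chosen with earlier results of these data known. No set test was run. Promoter sequences are from RefSeq.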

Additional observations from a re-analysis of the deposited data

Results flagged for a closer look

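The 30 results below had a KO effect that differed between neonates and adults in the test of that difference (limma, adjusted over 14524 genes). Values are the log2 difference in neonates minus that in adults. Among the rises, it was 3.95 for Hgd, 2.65 for Cyp2b10, 2.58 for Cyp3a11, 2.23 for Ubd, 2.16 for Abcb1a, 2.0 for Ifit2, 1.85 for Cyp2c65, 1.76 for Adh6a, 1.72 for Sis and 0.80 for Cyp3a25. Rises smaller in neonates had -2.34 for Ces2b and -0.71 for Areg. Falls that were larger in neonates had -2.89 for Lrp2, -2.17 for Ryr1, -2.13 for Tmprss6, -2.12 for Serpina1e, -1.94 for Igf2as, -1.91 for C8b, -1.88 for Abca13, -1.75 for Fga, -1.52 for Lrrc4, -1.50 for Rbfox3, -1.43 for Elovl2, -1.38 for Arhgap44 and -1.20 for Bmp8a. Of these 13 genes, all but Arhgap44 and Bmp8a were too low in adults for the adult test, as was Hgd. For the genes too low in adults the difference mostly restates the neonate effect. Ncor1 itself had -0.41, with log2 differences of -0.87 in neonates and -0.46 in adults. Plb1, which did not pass the filter in neonates, had 2.60. Among genes tested but not called in neonates the values were 2.47 for Nlrp1b, -0.83 for Fcgrt and 0.79 for Lct. These differences between ages were not examined gene by gene for single outlying libraries. Fits that left out 1 library are given below as counts of genes.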

How the results depend on the processing

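With the deposited scaling, 741 genes were higher and 2268 lower in KO neonates, against 1278 and 1093 with TMM factors; in adults the counts were 741 and 1870, against 1329 and 855. DESeq2 on the recovered reads called 995 higher and 579 lower genes in neonates, and edgeR 1254 and 931. Leaving out 1 library gave 959 to 1130 higher and 747 to 937 lower genes in neonates, 663 to 1379 higher and 386 to 802 lower genes in adults, and 212 to 392 genes more positive and 299 to 750 more negative in neonates for the difference between ages. In adults the counts were 851 and 502 without KO adults 2, 663 and 386 without KO adults 3, and 779 and 456 without WT adults 2. For the difference between ages, 212 genes were more positive without WT neonates 2, and the more negative genes numbered 750 without KO adults 1, 306 without KO neonates 3 or WT neonates 1, 299 without KO adults 3 and 301 without WT neonates 3. The other alternatives (median-of-ratios size factors, a pseudocount of 0.5, no filter) stayed within 1.5 times of each count. With the replicate block, 1478 genes were higher and 1342 lower in neonates. The same-numbered KO and WT libraries had correlations of deviations of 0.159, 0.138 and 0.03. The other pairs ranged from -0.183 (KO neonates 2 with WT neonates 1) to 0.042 (KO neonates 2 with WT neonates 3). Each KO library correlated best with the WT library of its number, but WT neonates 3 correlated best with KO neonates 2. These values do not settle whether the numbers pair the libraries. With the block, Arg2 (adjusted p = 0.013), Alb (0.00585), H19 (1.69e-06), Fcgrt (0.0257) and Prdm1 (0.0266) were called, and 8 cell cycle genes were higher. Count tests were not run for adults or for the difference between ages, because whole reads were not recovered for every adult library. Of 3163 values recomputed for 244 genes, which include those named in the text, 2930 kept their direction and side of the threshold. Directions turned only in genes that were not called: Mki67 had -0.073 with the deposited scaling; among the fits without 1 library Mki67 ranged from -0.012 to 0.076, Cdkn1a from -0.047 to 0.23, Fasn from -0.17 to 0.00337 and Nlrp1b from -0.67 to 0.079. A fit without a library kept the filter of 3 libraries, so that 26 called genes left the tested set in some of them. Library depth limits low genes most, above all in KO neonates 3 with 5930748 reads.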

Other observations

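Several called genes outside the lists belong to absorptive and transport functions, and they were picked after their values were seen. The next-largest rises under the same filters were led by Slc13a1, the apical sulfate transporter, with 13.8, 7.97 and 6.56 CPM in the KO libraries, against 1.69, 1.01 and 1.99 CPM in the WT libraries (log2 difference 1.99, SE 0.234, adjusted p = 1.45e-05). Clca6, a calcium-activated chloride channel regulator gene of the villus, rose to 59.2 ± 6.96 against 18.7 ± 1.83 CPM, Dpep1, a membrane dipeptidase gene, to 23.1 ± 4.81 against 7.23 ± 1.34 CPM, and Slc9a2, a sodium-proton exchanger gene, to 42.2 ± 3.71 against 14.5 ± 2.89 CPM. Aspa, which splits acetylaspartate, stood at 18.5 ± 1.96 CPM in KO and 6.46 ± 1.25 CPM in WT libraries, and Cyp4b1 at 16.6 ± 1.97 CPM in KO and 6.22 ± 0.738 CPM in WT libraries. The adult levels of these genes are set beside them without a test, since the tables of both ages were scaled separately. Slc13a1 had 922 ± 47.4 CPM in KO and 583 ± 86.9 CPM in WT adults, Clca6 1374 ± 279 CPM in KO and 1596 ± 81.5 CPM in WT adults, Dpep1 561 ± 41.7 CPM in KO and 525 ± 66.6 CPM in WT adults and Cyp4b1 167 ± 25 CPM in KO and 161 ± 28.1 CPM in WT adults. Apoc1, an apolipoprotein gene, rose in neonates to 28.2 ± 3.68 against 9.07 ± 1.81 CPM and had 0.501 ± 0.0667 CPM in KO and 0.368 ± 0.191 CPM in WT adults.

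Falls outside the lists were picked in the same way. Cttnbp2, a cortactin binding protein gene, had 12.7, 10.6 and 12.9 CPM in the KO libraries, against 36.4, 34 and 47.7 CPM in the WT libraries (log2 difference -1.62, SE 0.119, adjusted p = 1.35e-08). Lrrn1, a leucine-rich membrane protein gene, fell to 29 ± 3.37 against 75.9 ± 7.99 CPM, Abat, which breaks down the transmitter GABA, to 37.3 ± 3.22 against 108 ± 7.78 CPM, and St3gal5, the GM3 ganglioside synthase gene, to 70.3 ± 12 against 137 ± 6.78 CPM. The secreted Wnt antagonist gene Notum stood at 5.47 ± 1.32 CPM in KO and 12.2 ± 1.76 CPM in WT libraries and the membrane-bound antagonist gene Apcdd1 at 9.31 ± 2.21 CPM in KO and 22.9 ± 1.46 CPM in WT libraries. At the later age Lrrn1 had 0.796 ± 0.546 CPM in KO and 1.45 ± 0.732 CPM in WT adults, St3gal5 1.18 ± 0.263 CPM in KO and 1.95 ± 1.4 CPM in WT adults and Apcdd1 2.38 ± 0.185 CPM in KO and 2.73 ± 0.638 CPM in WT adults, whereas Abat had 68.9 ± 8.1 CPM in KO and 123 ± 9.8 CPM in WT adults.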
